A study of Mus musculus with 6 samples.

Results

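The mitochondrial carrier family comprises small membrane proteins, most of which sit in the inner mitochondrial membrane and exchange metabolites, nucleotides, cofactors or inorganic ions between the matrix and the cytosol. In heart muscle the ADP/ATP carriers and the phosphate carrier feed ATP synthase and export its product, the carnitine-acylcarnitine carrier admits fatty acids for oxidation, and the aspartate/glutamate and oxoglutarate carriers belong to the malate-aspartate shuttle that passes reducing equivalents inwards. The members described here are the protein-coding genes of GRCm38 whose symbol starts with Slc25a. There were 47 of them among the 55401 genes in the deposited files, and 1 transcribed pseudogene of that name was left out. The uncoupling proteins and Mtch1 and Mtch2 belong to the same protein family but carry other symbols, and they are set beside the members further on.

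Expression was measured by RNA sequencing of myocardium from male wild-type mice 8 weeks into the experiment, by the time label, which does not say from which event it runs. A group of 3 libraries came from mice injected with STZ (streptozotocin, a beta cell toxin used to make mice diabetic) and a group of 3 from mice injected with PBS (saline). The labels used here state no strain, age, STZ dose or blood glucose. The labels do not say that libraries came from separate animals, so the spread behind the p-values is that between libraries and could be technical. Values are FPKM (fragments mapped to a transcript, scaled by its length and by the library's mapped fragments), which can be compared between genes because they are per length. Depth in fragments is unknown, and counting error cannot be given. Only 7711 genes (13.9%) are listed for PBS replicate 3, among them 24 of the 47 carriers, and its values are quoted for those. Tests used PBS replicates 1 and 2 and the 3 STZ libraries.

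As a check of the tissue, the cardiomyocyte genes Myh6 and Tnnt2 lay in these 5 libraries between 2219 and 3083 FPKM and between 671 and 1099 FPKM. The atrial light chain Myl7 lay at 262, 37.86 and 0.21 FPKM in PBS replicates 1, 2 and 3. In STZ replicates 1, 2 and 3 it lay at 357, 73.69 and 0.28 FPKM. Atrial RNA thus differed between libraries of the same group, and Myl7 fell with the replicate number in both groups. Myl4 and Sln did so too in the complete libraries. Nppa lay at 996 and 251 FPKM in PBS and at 2864, 876 and 1591 FPKM in STZ, where it did not fall with the number. Bmp10 did not exceed 2.49 FPKM. The haemoglobin gene Hba-a1 lay at 246 FPKM in STZ replicate 2 and at 70.76 to 93.78 FPKM in the other complete libraries, with the red cell anion exchanger Slc4a1 at most 0.06 FPKM. The part of atrial or red cell RNA in the carrier values was not tested. Genes encoded by mitochondrial DNA made up 47.3% and 47.1% of the FPKM of the PBS libraries and 45.5%, 42.0% and 43.3% of that of the STZ libraries, so every STZ library had the lower share.

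Of the 47 carriers, 35 reached 1 FPKM in at least 2 complete libraries and 12 did not. Slc25a47 and Slc25a29 lay just inside this limit, with second-highest values of 1.20 and 1.72 FPKM, and Slc25a25 and Slc25a40 just outside it, with 0.95 and 0.86 FPKM. Among the tested carriers the mean over the 5 libraries ran from 1.14 FPKM (Slc25a47) to 1951 FPKM (Slc25a4). Slc25a4, the ADP/ATP carrier of heart and skeletal muscle, alone supplied 66.7% ± 0.766 of the family's FPKM in the PBS group (SD, n = 2), and in the STZ group 71.3% ± 3.09 (SD, n = 3). Only 4 members averaged 100 FPKM or more over the 5 libraries, namely Slc25a4, Slc25a3, Slc25a11 and Slc25a5. A further 7 averaged 10 FPKM or more.

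**Figure D1:**
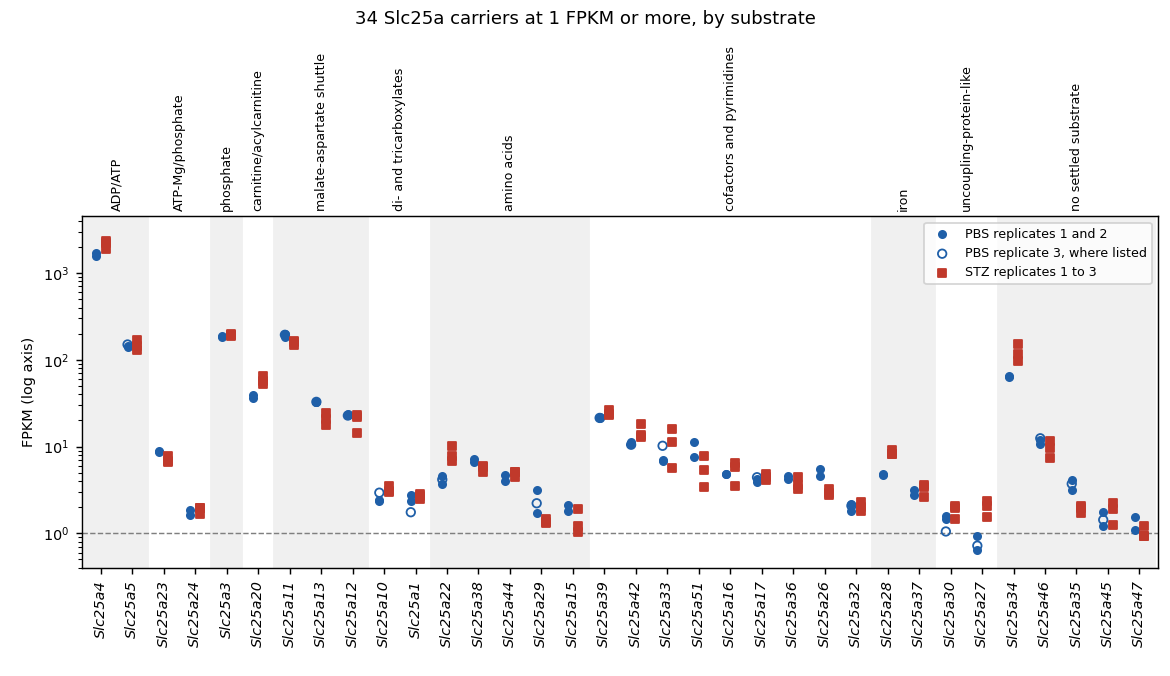
FPKM on a log axis of 34 of the carriers at 1 FPKM or more, grouped by the substrate they carry, with each point a library. Slc25a4 lies about an order of magnitude above Slc25a3, Slc25a11 and Slc25a5, and the dashed line marks 1 FPKM.

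Slc25a28 (mitoferrin 2, an importer of iron into mitochondria) was the only carrier that passed the test in STZ hearts. limma on log2(FPKM + 1), with Benjamini-Hochberg adjustment over 11556 genes, called 1 of the 35 tested carriers higher and 0 lower at an adjusted p below 0.05. Over all tested genes 5.82% were called, 3.64% higher and 2.17% lower, so the 2.86% of carriers called was below the share of all genes. Before adjustment 12 carriers had a p below 0.05, 7 of them higher and 5 lower, and among all tested genes 26.6% did, 16.4% higher and 10.2% lower. The 7 include Slc25a27, which passed the filter on low values only through its STZ libraries. For 19 of the 35 carriers (54.3%) all STZ libraries lay on the same side of both PBS libraries, against 47.4% of all genes tested. The median log2 fold change of the carriers was 0.07 and that of all tested genes 0.06. In bulk tissue fewer cells of a type and less RNA per cell cannot be told apart.

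A cluster of carriers lay close to the threshold. Slc25a35, Slc25a26, Slc25a34, Slc25a20, Slc25a22, Slc25a27 and Slc25a13 had limma adjusted p-values from 0.0502 to 0.0773. Each had all 3 STZ libraries on a single side of the PBS libraries, as had 47.4% of all genes tested in the complete libraries. These carriers were picked by their p-values, which favour such a separation, so it is no further support. With PBS replicate 3 added where its file lists a gene, 5 carriers passed as higher and 3 as lower, with Slc25a27 among the 5. For 4 of these 8 (Slc25a22, Slc25a27, Slc25a13 and Slc25a35) the file adds a value. Slc25a28, which had passed without that file, and Slc25a34, Slc25a20 and Slc25a26 gained no value from it. For the last 3 of these only the estimate of the spread over other genes and the adjustment differed between the fits.

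**Figure D2:**
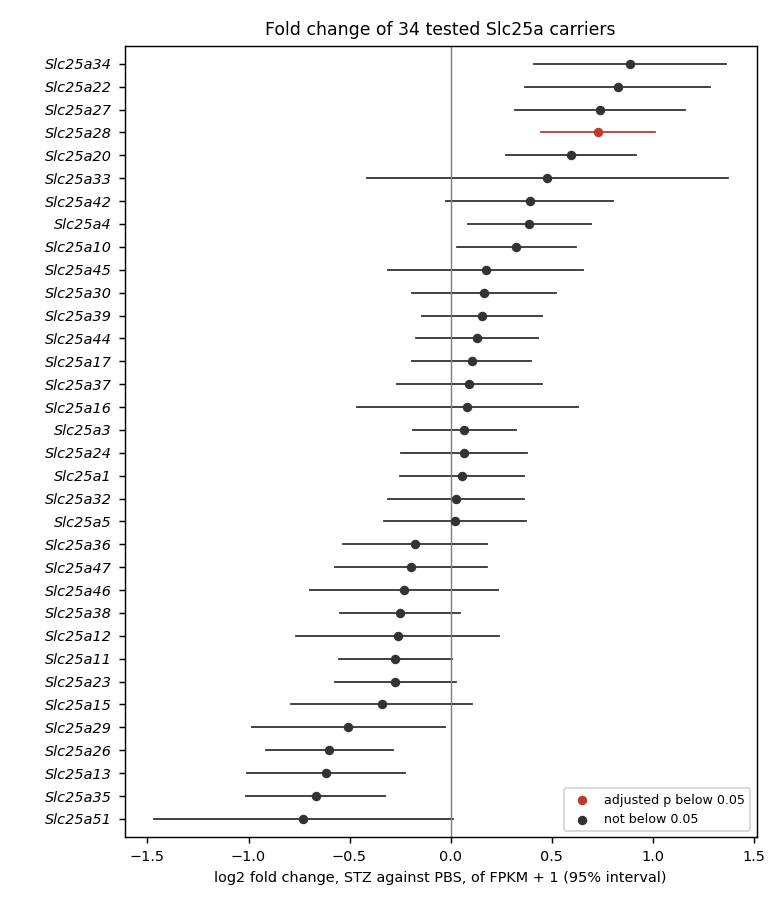
Log2 fold change of FPKM + 1 in STZ against PBS, with its 95% interval from limma, for 34 of the tested carriers, ordered by size. Slc25a28 alone has an adjusted p below 0.05, and Slc25a34, Slc25a22 and Slc25a27 have larger estimates with wider intervals.

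The iron carriers were the group with the call. Slc25a28 (ENSMUSG00000040414, chromosome 19, 43663801 to 43674881, minus strand) lay at 4.76 and 4.77 FPKM in the PBS libraries and at 8.24, 8.31 and 9.16 FPKM in the STZ libraries. Every STZ library was above both PBS libraries, and the mean was 1.80 times as high. Its log2 fold change was 0.73 ± 0.12 (SE, limma adjusted p = 0.0261). The call did not hold without PBS replicate 1 (adjusted p = 0.214), PBS replicate 2 (0.189), STZ replicate 1 (0.0534) or STZ replicate 2 (0.0513) in limma, while the log2 fold change stayed between 0.69 and 0.75 in the 5 fits that left out a library. With no filter on low values its adjusted p was 0.0709. Slc25a37 (mitoferrin 1, the erythroid iron importer) lay at 3.13 and 2.75 FPKM in PBS and 2.64, 3.39 and 3.63 FPKM in STZ, and its groups overlapped. In STZ replicate 2, with the highest haemoglobin, Slc25a37 (3.39 FPKM) was above both PBS libraries and below STZ replicate 3. The part of blood in its level was not tested. The ratio of Slc25a28 to Slc25a37 was 1.52 and 1.73 in PBS and 3.12, 2.45 and 2.52 in STZ. Among 5 genes that use mitochondrial iron limma called 0, and 2 had an unadjusted p below 0.05, with 1 positive and 4 negative signs. The iron-sulfur scaffold Iscu, the gene with the positive sign, lay nearest to the threshold, at 23.34 and 21.21 FPKM in PBS (20.41 in the third library) and 29.32, 32.04 and 34.09 FPKM in STZ (limma adjusted p = 0.0755). The cysteine desulfurase Nfs1, which supplies the sulfur, had the opposite sign, at 24.56, 24.27 and 24.91 FPKM in PBS and 18.57, 19.97 and 13.75 FPKM in STZ, without overlap (log2 fold change -0.48, limma adjusted p = 0.151). Alas1, which starts haem synthesis, lay at 25.70 and 20.55 FPKM in PBS and 18.60, 19.66 and 18.39 FPKM in STZ.

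The 250 bases before the start of 4 of the carriers are printed here as examples. Each of these genes had the largest log2 difference in its substrate group, of which Slc25a20 is the only member in its case. Slc25a22, Slc25a27 and Slc25a4 also had the largest in theirs and are not printed. The printed sequences come from RefSeq (GRCm38.p6), 5′ to 3′ on the gene's strand, in lower case. Capitals stand for a match to any of 6 motifs searched on both strands. The Slc25a28 window is chr19:43674882-43675131 (minus strand), the Slc25a34 window chr4:141623835-141624084 (minus), the Slc25a20 window chr9:108661886-108662135 (plus) and the Slc25a13 window chr6:6217174-6217423 (minus).
Slc25a28: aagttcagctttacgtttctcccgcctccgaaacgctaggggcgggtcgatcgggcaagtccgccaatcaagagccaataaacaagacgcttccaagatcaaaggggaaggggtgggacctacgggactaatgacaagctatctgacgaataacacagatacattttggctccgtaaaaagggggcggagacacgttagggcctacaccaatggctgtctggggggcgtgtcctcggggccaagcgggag
Slc25a34: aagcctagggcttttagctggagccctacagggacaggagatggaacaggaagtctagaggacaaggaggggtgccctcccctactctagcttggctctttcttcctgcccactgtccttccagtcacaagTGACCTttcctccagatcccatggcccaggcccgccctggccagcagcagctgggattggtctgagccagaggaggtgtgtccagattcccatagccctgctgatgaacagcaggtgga
Slc25a20: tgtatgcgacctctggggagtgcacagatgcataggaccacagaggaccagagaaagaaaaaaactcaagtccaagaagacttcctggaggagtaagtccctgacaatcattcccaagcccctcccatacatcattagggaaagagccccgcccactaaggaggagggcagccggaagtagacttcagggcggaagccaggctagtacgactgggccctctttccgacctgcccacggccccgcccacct
Slc25a13: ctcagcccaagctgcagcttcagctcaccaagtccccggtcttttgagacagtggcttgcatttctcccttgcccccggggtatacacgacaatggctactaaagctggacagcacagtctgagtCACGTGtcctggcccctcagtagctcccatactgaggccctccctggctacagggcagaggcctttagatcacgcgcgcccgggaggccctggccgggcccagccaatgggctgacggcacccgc

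Capitals mark the nuclear receptor hexamer AGGTCA on the opposite strand, 119 bases before the Slc25a34 start, and the E-box CACGTG, 125 bases before that of Slc25a13. The windows of Slc25a28 and Slc25a20 held no match. RefSeq windows were at hand for 36 of the 47 carriers, 46 windows in all. AGGTCA occurred in 8.70% of them and in 14.0% of 32851 windows of all genes. CACGTG occurred in 17.4% of the carriers' windows, in 7 carriers, and in 6.02% of all windows, and 2 of the matching windows are overlapping ones of Slc25a14. The median GC content was 52.4% over all windows, 59.6% over 30 windows of detected carriers and 53.2% over 16 of undetected ones, and its part in the shares of this GC-rich hexamer was not tested. Slc25a13 shared this hexamer with Slc25a1, Slc25a14, Slc25a15, Slc25a31, Slc25a33 and Slc25a36, of which Slc25a14 and Slc25a31 were too low to test and the others were not called. The oestrogen-related receptor site TCAAGGTCA, which contains AGGTCA, the NRF1 core CGCATGCG, the FoxO site GTAAACA and a direct repeat of AGGTCA spaced by 1 base, as PPAR binds, matched no carrier window, and they matched 0.39%, 1.55%, 3.17% and 0.03% of all windows. A match is a run of letters and not evidence of binding.

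The ADP/ATP carriers exchange matrix ATP for cytosolic ADP. Slc25a4 (ENSMUSG00000031633, chromosome 8, 46206797 to 46211284) lay at 1589 and 1694 FPKM in PBS and at 1902, 2214 and 2357 FPKM in STZ. All 3 STZ values exceeded both PBS values, the log2 fold change was 0.39 ± 0.13, and it did not pass (SE, limma adjusted p = 0.117). After quantile normalization of the libraries it was 0.67 and passed (limma adjusted p = 0.0246), in only that 1 of 17 alternatives. Under the other scalings Slc25a4 did not pass. Its log2 fold change was 0.32 with median centring (limma adjusted p = 0.157) and 0.46 with values rescaled to TPM (0.0924). It was 0.32 after rescaling without mitochondrial genes (limma adjusted p = 0.0934). Slc25a5, the carrier form of most other tissues, lay at 142, 146 and 150.0 FPKM in the 3 PBS libraries and 143, 169 and 129 FPKM in STZ, with overlapping groups. The ratio of Slc25a4 to Slc25a5 was 11.2 and 11.6 in PBS and 13.3, 13.1 and 18.2 in STZ. The germ cell form Slc25a31 did not exceed 0.18 FPKM. The phosphate carrier Slc25a3 lay within 183 to 187 FPKM in PBS and 190 to 197 FPKM in STZ, a log2 fold change of 0.07 with a 95% interval from -0.19 to 0.33. Its sign, and that of Slc25a5, turned negative with median centring, with quantile normalization and after rescaling without mitochondrial genes.

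The summed FPKM of the whole family was 2400 and 2518 in PBS and 2767, 3148 and 3155 in STZ. Without Slc25a4 the sums were 811 and 824 in PBS and 864, 935 and 798 in STZ, and the groups overlapped. By substrate, the STZ mean was 1.29 times the PBS mean for ADP/ATP, 1.53 times for carnitine and for iron, 1.73 times for the uncoupling-protein-like carriers and 0.805 times for the malate-aspartate shuttle. The sums of the uncoupling-protein-like carriers were small, at 2.37 and 2.75 FPKM in PBS and 3.56, 5.2 and 4.49 FPKM in STZ. They include Slc25a27, which reached 1 FPKM only in its STZ libraries. No p-value is given for a sum.

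**Figure D3:**
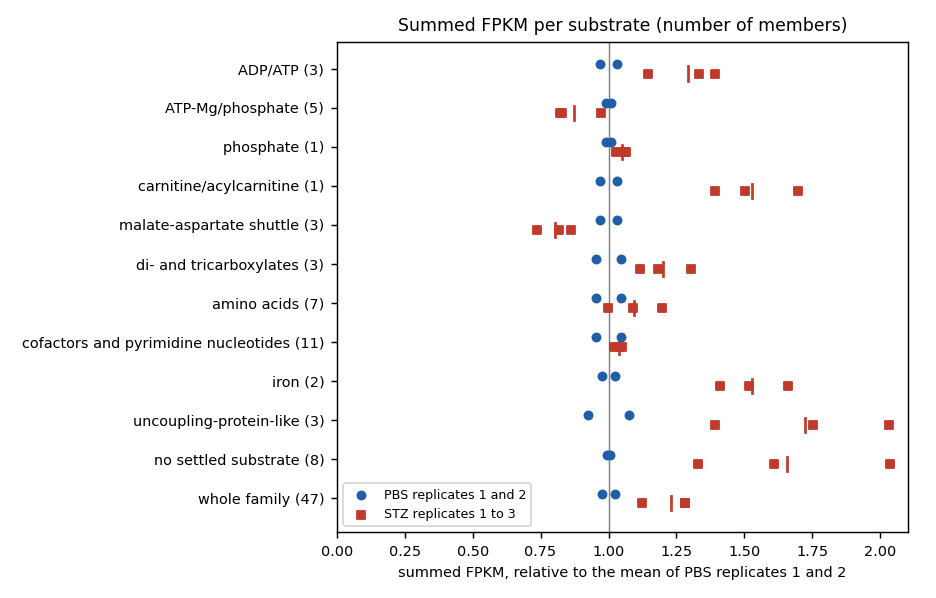
Summed FPKM of each substrate group in each complete library, divided by the mean of PBS replicates 1 and 2, with the number of members in brackets and a vertical bar at the STZ mean. The malate-aspartate shuttle and the ATP-Mg/phosphate carriers lie below 1 in all 3 STZ libraries. The amino acid carriers lie on both sides of it, and the other groups lie above it.

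Fatty acids enter the matrix as acylcarnitines through Slc25a20 (ENSMUSG00000032602, chromosome 9, 108662088 to 108684641). It lay at 36.62 and 39.08 FPKM in PBS and at 56.90, 64.20 and 52.65 FPKM in STZ. Each STZ library was above both PBS libraries, with a log2 fold change of 0.60 ± 0.13 that missed the threshold (SE, limma adjusted p = 0.0557). It passed in 2 of 17 alternatives. These were the test of only genes of 5 FPKM or more (limma adjusted p = 0.0398) and PBS replicate 3 added (0.0396). Its limma adjusted p was 0.111 with no filter on low values. The transferases on either side of this carrier did not all differ alike. Cpt1b, the muscle form that makes acylcarnitines at the outer membrane, rose from 132 and 135 to 204, 232 and 230 FPKM (limma adjusted p = 0.0276). The liver form Cpt1a rose from 4.46 and 5.04 (4.87 in PBS replicate 3) to 15.18, 17.94 and 9.48 FPKM (limma adjusted p = 0.0383). Crat, which makes acetylcarnitine, lay at 71.05 to 73.23 FPKM in PBS and 67.62 to 85.65 FPKM in STZ. Cpt2, which reverses the reaction in the matrix, lay at 83.39, 67.01 and 69.53 FPKM in PBS and 71.85, 52.94 and 56.96 FPKM in STZ, with overlapping groups. Most of the exon length of Cpt1b (81.4%) is shared with the same-strand gene Gm44502, so its reads could have been split between them. In limma, Cpt1b lost its call without PBS replicate 1 (adjusted p = 0.236), PBS replicate 2 (0.202) or STZ replicate 2 (0.0609), and Cpt1a without PBS replicate 1 (0.22), PBS replicate 2 (0.174), STZ replicate 1 (0.0854) or STZ replicate 2 (0.0651). Both also lost it with no filter on low values (0.0763 for Cpt1b and 0.119 for Cpt1a).

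Slc25a34 (ENSMUSG00000040740, chromosome 4, 141618824 to 141623821), whose substrate is not settled, was the fifth most abundant carrier. It lay at 65.57 and 62.80 FPKM in PBS and at 118, 151 and 96.29 FPKM in STZ. The PBS libraries were close together and the STZ libraries spread over a range wider than the gap between the groups. Its log2 fold change of FPKM + 1, 0.89 ± 0.20, was the largest of the family on that scale and missed the threshold (SE, limma adjusted p = 0.055). With a pseudocount of 0.1 it was 0.90, below those of Slc25a27 (1.24) and Slc25a22 (0.95). In limma Slc25a34 passed in 3 of 17 alternatives. It did so without STZ replicate 3 (log2 fold change 1.04, adjusted p = 0.0434) and with genes of 5 FPKM or more (adjusted p = 0.0414). The third was the fit with PBS replicate 3 added (adjusted p = 0.0413). With no filter on low values the limma adjusted p of Slc25a34 was 0.142. Its paralog Slc25a35 (chromosome 11, 68968131 to 68974365) differed in the other direction, with 3.16, 4.09 and 3.72 FPKM in PBS and 2.04, 1.71 and 1.96 FPKM in STZ. The log2 fold change of Slc25a35 was -0.67 ± 0.14 (SE, limma adjusted p = 0.0502), and -0.68 with the third PBS library (adjusted p = 0.0179). It also passed with a pseudocount of 0.1, median centring, quantile normalization, rescaling without mitochondrial genes and robust variance estimation. In all, Slc25a35 passed in 6 of 17 alternatives, and its limma adjusted p was 0.137 with no filter on low values. An opposite-strand gene, Rangrf, covers 31.3% of the Slc25a35 exon length, and the strand setting of the counting is not given in the sources used here.

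**Figure D4:**
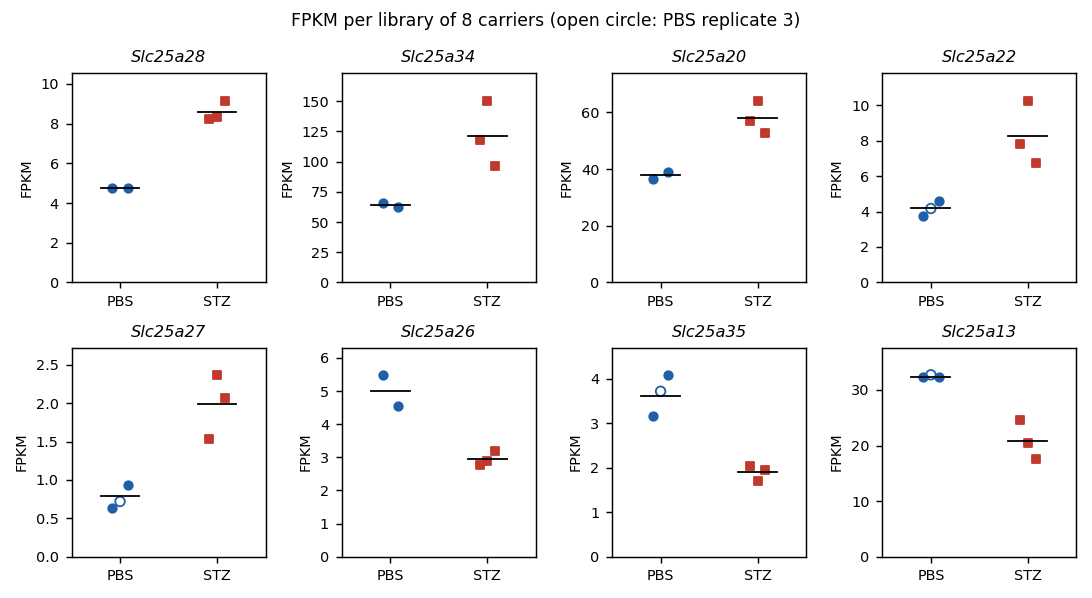
FPKM of 8 carriers in each library, from 0, with filled circles for PBS replicates 1 and 2, open circles for PBS replicate 3 where listed, squares for STZ and a bar at each mean of the complete libraries. In every panel the STZ libraries lie wholly above (Slc25a28, Slc25a34, Slc25a20, Slc25a22, Slc25a27) or wholly below (Slc25a26, Slc25a35, Slc25a13) the PBS libraries. The 8 carriers were chosen for lying past or near the threshold, so this separation is no further support.

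All 3 carriers of the malate-aspartate shuttle had a negative sign in STZ hearts, and limma called 0 of 3, with 1 unadjusted p below 0.05. Slc25a13 (citrin, an aspartate/glutamate carrier, chromosome 6, 6041218 to 6217173) was nearly constant in PBS, at 32.25, 32.32 and 32.73 FPKM, and lay at 24.52, 20.55 and 17.62 FPKM in STZ. Its log2 fold change was -0.62 ± 0.16 (SE, limma adjusted p = 0.0773), and with the third PBS library it fell by 0.62 ± 0.13 (adjusted p = 0.03). Slc25a13 passed in only that 1 of 17 alternatives, and its limma adjusted p was 0.164 with no filter on low values. Slc25a12 (aralar), the other aspartate/glutamate carrier, lay at 23.77, 23.10 and 22.76 FPKM in PBS and 23.00, 21.69 and 14.51 FPKM in STZ. With the third PBS library its groups overlapped, and STZ replicate 3 alone was far below the rest. The ratio of Slc25a13 to Slc25a12 was 1.36 and 1.40 in PBS and 1.07, 0.947 and 1.21 in STZ. The oxoglutarate/malate carrier Slc25a11 lay at 183, 199 and 194 FPKM in PBS and 165, 159 and 149 FPKM in STZ, without overlap (log2 fold change -0.27, limma adjusted p = 0.197). The 4 enzymes of the shuttle, Got1, Got2, Mdh1 and Mdh2, had log2 fold changes from -0.06 to 0.18, 2 of either sign, and limma called 0 of them at either the adjusted or the unadjusted threshold of 0.05.

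Among the 7 amino acid carriers 5 were tested and limma called 0, with 2 unadjusted p-values below 0.05. Slc25a22, a glutamate carrier (chromosome 7, 141429744 to 141437892), lay at 3.75, 4.61 and 4.17 FPKM in PBS and 7.81, 10.26 and 6.73 FPKM in STZ. The STZ mean was 1.98 times the PBS mean, a difference of 0.83 ± 0.19 on the log2 scale (SE, limma adjusted p = 0.0593). Slc25a22 passed in 2 of 17 alternatives. They were the third PBS library added (limma adjusted p = 0.0227) and genes of 5 FPKM or more (0.0478). Its limma adjusted p was 0.154 with no filter on low values. The related glutamate carrier Slc25a18 did not exceed 0.16 FPKM. Slc25a29, which carries basic amino acids, lay at 1.72, 3.14 and 2.22 FPKM in PBS and 1.30, 1.34 and 1.45 FPKM in STZ, where the PBS libraries varied more than the STZ libraries (log2 fold change -0.51, limma adjusted p = 0.167). The ornithine carrier Slc25a15 lay at 1.04 to 2.14 FPKM in the 5 libraries with overlapping groups, and its relative Slc25a2 did not exceed 0.20 FPKM. The glycine carrier Slc25a38 lay at 6.55 and 7.12 FPKM in PBS and 5.11 to 5.94 FPKM in STZ. Slc25a44, a carrier of branched-chain amino acids, lay at 4.03 to 5.05 FPKM, and its groups overlapped.

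The largest group, cofactors and pyrimidine nucleotides, had 10 tested members of 11 and 0 calls by limma, with 2 unadjusted p-values below 0.05. Slc25a26, which imports the methyl donor S-adenosylmethionine (chromosome 6, 94500331 to 94604672), lay at 5.49 and 4.54 FPKM in PBS and 2.78, 2.90 and 3.20 FPKM in STZ. Its log2 fold change was -0.60 ± 0.13 (SE, limma adjusted p = 0.0523), and it passed in 4 of 17 alternatives. They were median centring (limma adjusted p = 0.0401), quantile normalization (0.0397), rescaling without mitochondrial genes (0.0406) and PBS replicate 3 added (0.0383). The limma adjusted p of Slc25a26 was 0.129 with no filter on low values. The coenzyme A carrier Slc25a42 lay at 10.67, 11.29 and 10.49 FPKM in PBS and 12.92, 18.15 and 13.52 FPKM in STZ, without overlap (log2 fold change 0.39, limma adjusted p = 0.205). Slc25a39, of the glutathione carriers, was the most abundant of the group, at 21.06 to 22.14 FPKM in PBS and 22.92 to 26.15 FPKM in STZ, and its relative Slc25a40 stayed between 0.75 and 0.91 FPKM. Slc25a51, the importer of NAD, varied within groups, at 11.40 and 7.65 FPKM in PBS and 3.41, 5.35 and 7.72 FPKM in STZ, and STZ replicate 3 was above a PBS library. The pyrimidine nucleotide carrier Slc25a33 had the widest standard error of the tested carriers (0.37 on the log2 scale), at 7.06, 6.83 and 10.20 FPKM in PBS and 15.88, 5.62 and 11.14 FPKM in STZ. Slc25a16, Slc25a17, Slc25a32 and Slc25a36 lay between 1.80 and 6.45 FPKM with overlapping groups.

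Of the 3 uncoupling-protein-like carriers, Slc25a27 (chromosome 17, 43641891 to 43667214) lay at 0.64, 0.93 and 0.72 FPKM in PBS and 1.53, 2.37 and 2.07 FPKM in STZ. It was tested only because its STZ values reached 1 FPKM, so its difference of 0.74 ± 0.17 on the log2 scale (SE; adjusted p = 0.0631 in limma, and 0.0237 with the third PBS library) is a description and supports no call. Slc25a30 lay at 1.05 to 2.06 FPKM over all 6 libraries and Slc25a14 at 0.16 to 0.85 FPKM over the 5 complete ones. Among the calcium-regulated ATP-Mg/phosphate carriers, Slc25a23 lay at 8.70 and 8.79 FPKM in PBS and 6.73, 7.82 and 6.69 FPKM in STZ, without overlap (log2 fold change -0.27, limma adjusted p = 0.217). Slc25a24 lay at 1.63 to 1.97 FPKM with overlapping groups and Slc25a25 at 0.51 to 1.12 FPKM. The dicarboxylate carrier Slc25a10 lay at 2.33, 2.39 and 2.94 FPKM in PBS and 3.09, 3.01 and 3.55 FPKM in STZ (log2 fold change 0.33, limma adjusted p = 0.156). The citrate carrier Slc25a1 lay at 1.75 to 2.85 FPKM, with overlapping groups. The oxodicarboxylate carrier Slc25a21 did not exceed 0.02 FPKM. Without a settled substrate, Slc25a46, which sits in the outer membrane, lay at 7.32 to 12.45 FPKM, Slc25a45 at 1.20 to 2.23 FPKM and Slc25a47 at 0.92 to 1.54 FPKM, each with overlapping groups, while Slc25a43 and Slc25a53 did not exceed 0.18 FPKM.

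Slc25a41, Slc25a48 and Slc25a54 were listed at 0 in every library that listed them. In 4 places of the genome a pair of carriers are neighbours within 100 kb, and in 3 of them the levels differed widely. Slc25a5 averaged 145.9 FPKM and Slc25a43, 18448 bases away on the X chromosome, 0.024 FPKM. Slc25a23 averaged 7.75 FPKM beside Slc25a41 at 0, and Slc25a24 1.81 FPKM beside Slc25a54 at 0. Slc25a29 and Slc25a47, on opposite strands 162 bases apart, averaged 1.79 and 1.14 FPKM.

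Of the relatives under other names 4 were tested, and 2 rose. Ucp3, an uncoupling protein of muscle, rose from 8.30 and 7.53 to 43.29, 59.92 and 32.23 FPKM, which is 2.33 ± 0.25 on the log2 scale (SE; adjusted p = 0.011 in limma). Ucp2 rose from 7.27 and 3.82 to 14.11, 15.09 and 13.10 FPKM (log2 fold change 1.26, limma adjusted p = 0.0374). The Ucp3 call was lost without PBS replicate 1 (limma adjusted p = 0.0856) or 2 (0.0812), and the Ucp2 call without any of the 5 libraries in turn (limma adjusted p from 0.0582 to 0.154). With no filter on low values both were lost (0.0621 for Ucp3 and 0.117 for Ucp2). The brown fat form Ucp1 was listed at 0, and the outer membrane proteins Mtch1 and Mtch2 had log2 fold changes of -0.04 and -0.10. Of 17 other listed transport proteins of the inner membrane 14 were tested, and the ion exchanger Letm1 fell from 11.16, 11.07 and 9.84 to 6.26, 6.49 and 5.95 FPKM (log2 fold change -0.74, limma adjusted p = 0.0245), while 0 rose. The Letm1 call was lost without PBS replicate 1 (limma adjusted p = 0.201), PBS replicate 2 (0.18) or STZ replicate 1 (0.0534), and with no filter on low values (0.0641). The median log2 fold change of these 14 genes was -0.14. The subunits of the pyruvate carrier, Mpc1 and Mpc2, lay at 26.37, 32.54 and 32.37 and at 33.03, 32.89 and 34.59 FPKM in PBS, and at 23.35, 24.79 and 27.02 and at 25.24, 24.10 and 27.57 FPKM in STZ. Mpc2 did not overlap between groups (limma adjusted p = 0.13). Smdt1, a subunit of the calcium uniporter, lay at 33.09 to 46.59 FPKM in PBS and 29.70 to 44.16 FPKM in STZ. In the import route that carries these proteins to the inner membrane, 15 of 16 genes were tested, limma called 0 in either direction, 1 had an unadjusted p below 0.05, and the median log2 fold change was -0.09. Timm8b lay at 115 and 110 FPKM in PBS and 81.09, 87.40 and 100.2 FPKM in STZ, without overlap, and Tomm5 differed most between libraries of a group, at 12.81 and 85.31 FPKM in PBS. The outer membrane channels Vdac1, Vdac2 and Vdac3 had log2 fold changes of 0.08, 0.13 and 0.02, and cyclophilin D (Ppif) one of -0.34 with groups that did not overlap (limma adjusted p = 0.136).

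Markers of other cells moved with the groups for some lists. The neutrophil genes S100a8, S100a9, Retnlg and Ly6g summed to 3.29 and 7.46 FPKM in PBS and 40.37, 56.85 and 50.86 FPKM in STZ, with the defining gene Ly6g at 0 in PBS and at 0.10, 0.38 and 0 FPKM in STZ. S100a8 and S100a9 rose (limma adjusted p = 0.00707 and 0.00943, the latter 0.0596 with no filter on low values). Retnlg was tested only through its STZ values, at 0 and 0.46 FPKM in PBS and 5.69, 7.21 and 6.69 FPKM in STZ, and Ly6g was too low to test. The 4 smooth muscle markers summed to 78.95 and 60.63 FPKM in PBS and 33.58 to 39.85 FPKM in STZ, where 1 of 3 tested fell (Acta2, limma adjusted p = 0.0221, and 0.0527 to 0.147 without PBS replicate 1 or 2 or STZ replicate 1 or 2, and 0.077 with no filter on low values). Sums of 5 fibroblast markers lay between 82.08 and 96.22 FPKM in the 5 libraries, but the members differed in direction. Col1a1, a chain of type I collagen, fell from 14.74, 11.21 and 11.19 to 3.79, 3.32 and 3.03 FPKM (log2 fold change -1.67, limma adjusted p = 0.00806, and 0.0851 without PBS replicate 1), while Dcn lay at 56.72, 53.19 and 50.09 FPKM in PBS and 66.52, 74.34 and 74.22 FPKM in STZ (limma adjusted p = 0.115). Sums of 4 macrophage markers lay at 56.45 to 62.48 FPKM in PBS and 43.60 to 59.44 FPKM in STZ, and 6 skeletal muscle markers stayed under 1 FPKM. The 4 endothelial markers summed to 95.49 and 94.10 FPKM in PBS and 92.32 to 109.8 FPKM in STZ, with 2 of either sign and none called. Pecam1 was higher in STZ (limma adjusted p = 0.0962) and Kdr lower (0.499), both without overlap. The adipocyte markers Adipoq, Plin1, Cidec and Lep were at most 0.43 FPKM, and the fifth, Cfd, lay at 3.71 and 1.74 FPKM in PBS and 1.26, 0.77 and 0.18 FPKM in STZ, without overlap (log2 fold change -1.10, limma adjusted p = 0.108). Of the 3 brown fat markers, Ucp1 was at 0. Cidea, a lipid droplet protein, rose from 20.07 and 15.33 to 38.65, 46.88 and 44.62 FPKM (limma adjusted p = 0.0169). The Cidea call was lost without PBS replicate 1 or 2 and with no filter on low values (limma adjusted p = 0.0641). Dio2 had the other direction and was too low to test. It lay at 0.36, 0.32 and 0.19 FPKM in PBS and 0.15, 0.16 and 0.02 FPKM in STZ, without overlap. The 5 cardiomyocyte markers summed to 11591 and 12235 FPKM in PBS and to 9090, 8699 and 10088 FPKM in STZ, and 1 of them, Actc1, was called. The cardiac actin Actc1 fell from 4890 and 4832 to 3338, 2747 and 2926 FPKM (log2 fold change -0.70, limma adjusted p = 0.0282). That call was lost with quantile normalization (log2 fold change -0.22, adjusted p = 0.211), with no filter on low values (0.177) and without PBS replicate 1 (0.237), PBS replicate 2 (0.204), STZ replicate 2 (0.0589) or STZ replicate 3 (0.0565) in limma. Myh6 lay at 2925 and 3083 FPKM in PBS and 2244, 2219 and 2546 FPKM in STZ, and Tnnt2, with the other sign, at 671, 756 and 738 FPKM in PBS and 813, 848 and 1099 FPKM in STZ, and neither was called. The part of these shifts in the carrier values was not tested.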

How the data were processed

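RNA was extracted with TRIzol, enriched for poly(A) and made into libraries that mark the second strand with dUTP, per the labels' protocols. cutadapt 1.9, HISAT2 2.0.4, StringTie 1.3.4d and GRCm38 are named, per the submitters' processing notes. The authors deposited 1 table of FPKM values per library, rounded to 2 decimals. These are not counts, so no count model was used. Summed FPKM was 531384 to 589719 in the 5 complete libraries.

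Gene IDs were matched to GENCODE M21 symbols, and 260 had none. Genes at 1 FPKM or more in at least 2 of the 5 complete libraries (11556) were tested on log2(FPKM + 1) with limma 3.58.1 in R 4.3.3 (lmFit, eBayes with trend, two-sided, no covariate, Benjamini-Hochberg, threshold 0.05). A fold change on this scale understates the change of low genes. In a test on simulated data for the STZ and PBS comparison of 11556 genes, limma called 48% of the genes given a log2 change of 1 and 88% of those given 2. The genes given a change were drawn from those with a mean log2(FPKM + 1) above 2. These shares therefore do not describe lower carriers, such as Slc25a47 and Slc25a27.

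The members, substrate groups, lists and markers were chosen with earlier results of these data known. Named were the members past the threshold, the 10 of highest level, the highest of each substrate group, those at the detection limit, and in each list the genes past the threshold and up to 2 of highest level. Further members and listed genes were named after their values were seen. Protein sequences were not used here. The values of 1 tested member are not reported here. Alternatives varied the pseudocount, filter, scaling, variance model, replicate block and libraries. That the called genes of the lists were put through the same alternatives was chosen after seeing the data.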

Additional observations from a re-analysis of the deposited data

How the results depend on the processing

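The log2 fold change of Slc25a28 stayed between 0.66 and 0.84 over 17 alternatives, and its call held in 11 and was lost in 6 (limma adjusted p from 0.0176 to 0.214). The count of carriers higher (1) was 0 with no filter, 4 with a filter at 5 FPKM, 2 with quantile normalization, 5 with PBS replicate 3 added and 0 to 2 on leaving out a library. The count lower (0, with 5 at an unadjusted p below 0.05) was 1 with a pseudocount of 0.1 and with robust variance estimation, 2 with median centring, quantile normalization and rescaling without mitochondrial genes, 3 with PBS replicate 3 added and 0 on leaving out any library. Over all genes 421 were higher and 251 lower. These counts were 46 and 35 with no filter, 737 and 432 with PBS replicate 3 added, and 18 to 231 and 6 to 167 on leaving out a library. The share of calls that were higher, 62.6%, was 48.5% with median centring, 50.2% with quantile normalization and 73.1% with values rescaled to TPM. At 5 FPKM in place of 1 FPKM 20 carriers were detected, and 42 at 0.1 FPKM. Slc25a3 took a negative sign with median centring (-0.00046), quantile normalization (-0.11) and rescaling without mitochondrial genes (-0.0053). Slc25a5 did so in the same settings (-0.048, -0.16 and -0.053) and ranged from -0.083 (without STZ replicate 2) to 0.108 (without STZ replicate 3) on leaving out a library. The cause was not tested. Without a PBS library the group has 1 sample, which limma then assumes to vary like the STZ group. Depth is unknown, so how far counting error limits carriers near 1 FPKM cannot be given.

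The labels do not say what a replicate number marks, and whether the numbers pair the samples was not settled. Correlations of same-numbered deviations were 0.176, -0.05 and 0.15 over 4811 genes in the 6 libraries. PBS replicates 1 and 3 correlated best with the STZ library of their number, and PBS replicate 2 with STZ replicate 3 (0.093). Myl7 fell with the number in both groups, at 262, 37.86 and 0.21 FPKM in PBS and 357, 73.69 and 0.28 FPKM in STZ. Of the other atrial markers, Myl4 and Sln did likewise in the complete libraries, and Nppa and Bmp10 did not. The fit with a replicate block leaves out PBS replicate 3, so STZ replicate 3 has no partner there. The block therefore also takes STZ replicate 3 out of the fold changes. With the replicate block 64 genes were called instead of 672, with 36 higher and 28 lower. In that fit 0 carriers were called in either direction (Slc25a28 0.69, adjusted p = 0.0895 in limma). Of the called genes of the lists, Ucp2, Letm1, Cpt1b, Actc1, Acta2 and Cidea lost their calls with the block. Ucp3, Cpt1a, Col1a1, S100a8 and S100a9 kept theirs.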
